A study of Mus musculus with 20 samples.

Results

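The 10 genes described here are Ndrg1 and 9 genes of the hypoxia response and glycolysis: Hif1a, Egln3, Vegfa, Slc2a1, Hk2, Pgk1, Ldha, Pdk1 and Bnip3. They were taken from a count table of 23373 Entrez gene IDs by matching each ID to its mouse symbol, and all 10 were found. The set was selected on a measured value as well, the higher Ndrg1 count after benzo[a]pyrene (B[a]P). The contrasts of B[a]P with its solvent, and differences between them, are therefore given for these 10 genes as a description. Where calls of these genes are named there, they come from a test over all genes and carry no p-value. Counts of genes called there stand beside the share of all genes called. Nothing is read from these counts or from the named calls. All 10 genes passed the filter on low counts, which kept 14343 genes.

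RNA was read in 20 libraries of Hepa-1, a mouse hepatoma line, in 10 groups of 2 libraries. Cr(VI)-grown cells had hexavalent chromium, Cr(VI), at 0.5 mM as labelled in their medium for 20 or for 25 passages. Recovered cells were kept with Cr(VI) for 20 passages and free of it for the next 5. Control-grown cells had no Cr(VI) and were sampled at passages 20 and 25. Each of these cell populations received B[a]P, at 5 mM as labelled, or the solvent DMSO for 8 hours. All cells were kept in medium with 5% serum, and the labels name no hypoxic group. The series title speaks of low concentrations, and the titles of the later samples carry 27 where the passage label says 25; doses and passages are given as labelled. The study asked what long-term Cr(VI) does to Hepa-1 cells and to their response to B[a]P. In such bulk RNA, fewer cells that express a gene and less RNA per cell cannot be told apart.

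Hypoxia-inducible factor is a pair of proteins, an oxygen-labile alpha subunit such as HIF1A and the stable partner ARNT. When oxygen is present, prolyl hydroxylases of the EGLN family mark HIF1A for destruction by way of VHL, so the factor is controlled mainly at the level of protein. The aryl hydrocarbon receptor (AHR), which binds B[a]P, uses the same partner ARNT and switches on Cyp1a1 and other genes of xenobiotic metabolism. In hepatoma cells HIF target genes bring in glucose, run glycolysis and attract vessels.

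Ndrg1 (Entrez ID 17988, chr15:66929318-66969641 in GRCm38.p6, the build also called mm10) encodes a cytoplasmic stress-response protein. Hif1a (15251, chr12:73901324-73947554) encodes the alpha subunit, and Egln3 (112407, chr12:54178981-54203874) a prolyl hydroxylase that is itself a HIF target. Vegfa (22339, chr17:46016993-46032377) encodes the secreted growth factor of blood vessels. Glucose handling is represented by Slc2a1 (20525, chr4:119108745-119137330), the glucose transporter GLUT1, and by Hk2 (15277, chr6:82725025-82774454), which phosphorylates glucose. Pgk1 (18655, chrX:106187100-106203699) acts lower in glycolysis, and Ldha (16828, chr7:46842274-46855627) makes the subunit of lactate dehydrogenase that turns pyruvate into lactate. Pdk1 (228026, chr2:71873215-71903858) encodes a kinase of pyruvate dehydrogenase, and Bnip3 (12176, chr7:138890836-138909506) a mitochondrial protein that promotes mitophagy. Counts cover whole genes, exons as annotated, and the strand setting is not given in the sources used here. Hif1a, Slc2a1, Ldha and Bnip3 overlap non-coding genes or pseudogenes of the annotation that had no row in the table, so reads there cannot be told apart. Ldha and Pgk1 also have processed copies in the genome, and how the counting split reads among them is not known.

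Promoter sequence is shown for 5 of the genes because HIF and AHR, which share ARNT, bind related DNA. Vegfa and Slc2a1 were higher after B[a]P in every pair of libraries, and Hk2 was lower at passage 20. Pgk1 followed the library set, and Bnip3 differed between the duplicates of the later passage. Each line gives the 250 bases upstream of the first RefSeq transcript start in GRCm38.p6, 5′ to 3′ on the strand of the gene. Capitals mark the letters of ACGTG, the core of the HIF response element, or of GCGTG, the core bound by AHR with ARNT, on either strand, so a match on the opposite strand shows as the reverse complement. GCGTG also fits the looser HIF core, and in CACGTG the same letters are read on both strands.

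Vegfa, chr17:46032378-46032627, minus strand: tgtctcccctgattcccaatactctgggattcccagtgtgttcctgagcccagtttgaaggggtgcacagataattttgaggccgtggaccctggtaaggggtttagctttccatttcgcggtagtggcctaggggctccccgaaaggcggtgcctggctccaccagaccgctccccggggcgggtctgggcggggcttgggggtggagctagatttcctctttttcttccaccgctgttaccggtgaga
Slc2a1, chr4:119108495-119108744, plus strand: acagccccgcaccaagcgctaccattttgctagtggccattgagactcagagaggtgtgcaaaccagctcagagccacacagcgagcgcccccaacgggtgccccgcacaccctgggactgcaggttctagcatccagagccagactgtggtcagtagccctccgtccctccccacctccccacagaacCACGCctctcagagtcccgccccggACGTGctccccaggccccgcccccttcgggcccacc
Hk2, chr6:82774455-82774704, minus strand: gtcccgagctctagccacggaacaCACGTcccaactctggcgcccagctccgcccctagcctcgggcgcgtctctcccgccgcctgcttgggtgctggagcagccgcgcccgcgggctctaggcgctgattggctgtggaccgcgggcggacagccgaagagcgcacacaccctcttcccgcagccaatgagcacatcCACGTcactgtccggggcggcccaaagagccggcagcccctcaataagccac
Pgk1, chrX:106186850-106187099, plus strand: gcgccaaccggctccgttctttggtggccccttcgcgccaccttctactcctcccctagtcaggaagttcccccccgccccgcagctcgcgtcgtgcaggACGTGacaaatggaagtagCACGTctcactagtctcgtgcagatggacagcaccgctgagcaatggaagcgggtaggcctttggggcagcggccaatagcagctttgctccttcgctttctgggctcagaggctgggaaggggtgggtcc
Bnip3, chr7:138909507-138909756, minus strand: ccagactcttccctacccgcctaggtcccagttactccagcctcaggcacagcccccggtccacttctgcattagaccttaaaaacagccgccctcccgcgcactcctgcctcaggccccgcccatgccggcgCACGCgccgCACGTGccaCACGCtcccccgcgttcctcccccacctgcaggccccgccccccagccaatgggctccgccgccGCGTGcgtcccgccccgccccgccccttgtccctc

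The Vegfa window held neither 5-base string. A second Vegfa start site had 1 match of each, in a window that lies inside the Vegfa gene (chr17:46025164-46025413). Slc2a1 held 1 ACGTG at bases -36 to -32 and 1 GCGTG on the opposite strand at bases -61 to -57. Hk2 held ACGTG on the opposite strand at 2 places, and Pgk1 held it at 2 places, 1 on each strand. Bnip3 held 5 matches, of which 2 were the same CACGTG read on both strands. RefSeq promoter windows were found for 9 of the 10 genes, all but Ndrg1, so the Ndrg1 promoter is not described. Of these 12 windows, 10 held either string, 8 of them ACGTG and 5 GCGTG. Of 32851 mouse promoter windows of this length, 38.6% held either string, 16.6% ACGTG and 28.2% GCGTG. A match of letters is a description of the sequence and not a site of binding.

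**Figure D1:**
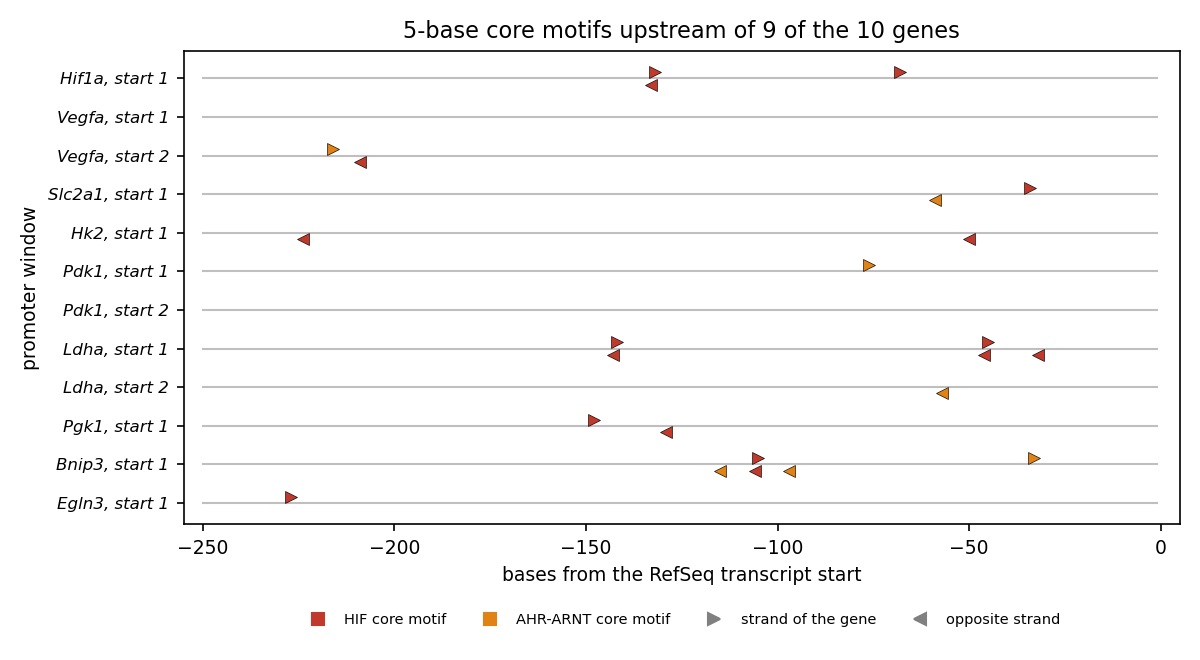
Positions of the 5-base HIF core (red) and AHR-ARNT core (orange) in the 250 bases upstream of 12 RefSeq starts of 9 genes; the x axis is bases from the transcript start, arrowheads point along the strand of the gene or against it. All windows but the first of Vegfa and the second of Pdk1 held at least 1 match. No window was found for Ndrg1.

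Library totals were 20976045 to 37930720 counts. Values per library are CPM, counts scaled to a common library size, on library sizes adjusted by the trimmed mean of M-values (TMM). Per kb of exon in GENCODE M21, the highest of the 10 genes was Ldha with a median of 887 CPM per kb over 20 libraries, followed by Pgk1 with 459. Slc2a1 had 42.3 and Hif1a 30.8 CPM per kb, Egln3 19.6, Vegfa 19.1, Ndrg1 12 and Hk2 8.78. Bnip3 had 4.23 and Pdk1 3.02 CPM per kb. Neighbours in this order overlapped in their single libraries, except that every Pgk1 level per kb was above every Slc2a1 level. Vegfa, for instance, varied 16.2-fold between its lowest and highest library, Bnip3 12-fold, Hif1a 11.3-fold and Ndrg1 10.2-fold, while Egln3 varied 2.56-fold.

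The label check of B[a]P held in every library: Cyp1a1 lay between 930 and 2089 CPM in B[a]P libraries and between 25.1 and 62.4 CPM in DMSO libraries. The replicate 2 libraries of passage 25 stood apart from the others. On the first principal component, which carried 54.2% of the variance, these 6 libraries lay at 80.4 to 107, the second Cr(VI)-grown DMSO library of passage 20 at -3.9 and the other 13 libraries at -73.3 to 5.8. Between the duplicates of passage 25, 42.4% of the differences, taken over all genes tested and 6 groups, were larger than 1 on the log2 scale in either direction. Sample names also divide the libraries into a passage 20 set and a passage 25 set, so passage and library set cannot be told apart. Of the hepatocyte-derived markers, Alb (826 to 5700 CPM), Afp (102 to 334 CPM) and Trf (517 to 2820 CPM) were present, while Ttr, Serpina1a and Apoa1, which mature hepatocytes express strongly, stayed at or below 1.83, 1.7 and 0.0687 CPM. Sums over some marker lists differed between these libraries and the others. The 6 hepatocyte-derived markers summed to 6120 to 8780 CPM in the passage 25 replicate 2 libraries and 1630 to 4520 CPM in the 13 others. The 5 stellate and fibroblast markers summed to 471 to 694 and 131 to 393 CPM. The sums of 4 cholangiocyte markers were 1240 to 2030 and 328 to 1350 CPM, with 1890 CPM in the second Cr(VI)-grown DMSO library of passage 20, of 4 macrophage markers 35.2 to 59.4 and 20 to 58.6 CPM, and of 4 endothelial markers 0.0427 to 0.554 and 0.216 to 1.58 CPM. The part of this set in the results was not tested beyond leaving it out, and results are given also without those 6 libraries and the second Cr(VI)-grown DMSO library of passage 20.

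Ndrg1 was higher after B[a]P in Cr(VI)-grown cells. At passage 20 it had 49.2 and 54.9 CPM after B[a]P, against 12.8 and 9.25 CPM after DMSO. At passage 25 it had 34.3 and 94.7 CPM after B[a]P, against 19.5 and 24.5 CPM after DMSO. Every B[a]P library was above every DMSO library of its passage, and the B[a]P duplicates of passage 25 lay far apart. Over both passages the fitted log2 change was 1.89 ± 0.32 (SE), 3.72-fold higher, and it was 1.44 to 2.17 with 1 library left out. Within passage 20 alone it was 2.24 ± 0.46, within passage 25 alone 1.55 ± 0.45, and without the libraries that stand apart 1.42 ± 0.10. Some markers of other cell types moved with B[a]P as well. Cd68, of the macrophage list, was higher after B[a]P in 10 of 10 pairs of libraries with the same replicate number (0.40 to 1.31 on the log2 scale). Csf1r of that list was higher in 9 of 10 (-0.13 to 0.80) and Adgre1 in 4 of 10 (-1.22 to 1.52). Of the cholangiocyte list Sox9 was lower in 10 of 10 and Krt19 in 9 of 10, while Krt7 was higher in 3 of 10 (-1.62 to 0.70). In Cr(VI)-grown cells the 4 macrophage markers summed to 37.2 to 59.4 CPM after B[a]P and 32 to 53.1 CPM after DMSO, and the 4 cholangiocyte markers to 328 to 1620 CPM after B[a]P and 967 to 2030 CPM after DMSO, overlapping in both lists. In edgeR without the block none of these markers was called there, and DESeq2 called 1 of each list. With the block Cd68 was higher, at 0.96 ± 0.17 (adjusted p = 0.00298), and Sox9 and Krt19 were lower, at -0.82 ± 0.13 (adjusted p = 0.00169) and -1.44 ± 0.27 (adjusted p = 0.00463). Adgre1 and Clec4f, defining markers of macrophages, stayed at or below 1.02 and 0.0396 CPM, and Epcam, of the cholangiocyte list, at or below 0.316 CPM. The part of these markers in the results was not tested.

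Vegfa and Slc2a1 were also higher in each pair. At passage 20 Vegfa had 129.4 and 123.4 CPM after B[a]P and 39.4 and 26.5 CPM after DMSO. At passage 25 it had 122.5 and 76.8 CPM after B[a]P and 37.96 and 16.99 CPM after DMSO, so the groups did not overlap at either passage. The log2 change of Vegfa was 1.90 ± 0.63, with the replicate number as a block in the model 1.96 ± 0.39, and 1.69 ± 0.08 without the libraries that stand apart. Slc2a1 had 121.7 and 120.7 CPM after B[a]P and 71.2 and 73.4 CPM after DMSO at passage 20. At passage 25 Slc2a1 had 142.2 and 236.6 CPM after B[a]P and 132.4 and 125.3 CPM after DMSO, where the lower B[a]P library lay just above the DMSO pair. Its log2 change was 0.65 ± 0.22, with the block 0.63 ± 0.15, and 0.44 ± 0.07 without the libraries that stand apart.

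**Figure D2:**
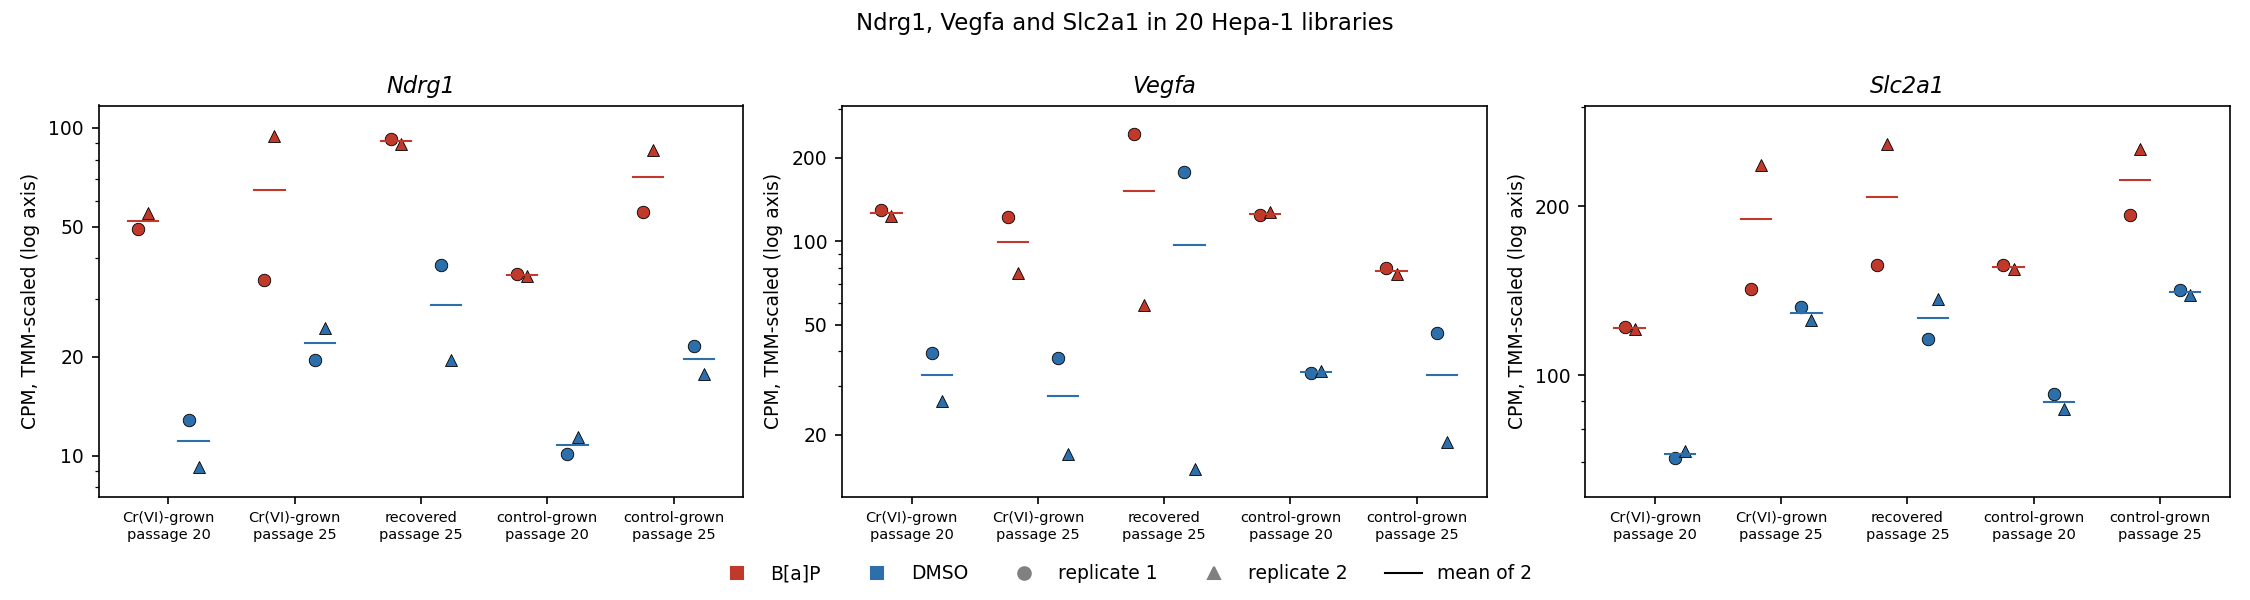
CPM (TMM-scaled, log axis) of Ndrg1, Vegfa and Slc2a1 in each library, by growth history and passage, with B[a]P in red left of DMSO in blue; circles are replicate 1, triangles replicate 2 and bars the mean of 2 libraries. Ndrg1 after B[a]P lay at 34.3 CPM or higher in Cr(VI)-grown cells and after DMSO at 24.5 CPM or lower.

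In all, 1 of the 10 genes, Ndrg1 itself, was called for B[a]P in Cr(VI)-grown cells in edgeR's quasi-likelihood test, where 0.941% of the 14343 genes tested were called, and none when any of 5 of the 8 libraries was left out. With the replicate block 3 of 10 were called (Ndrg1, Vegfa and Slc2a1), where 11.3% of genes were, and with DESeq2 2 of 10 (Ndrg1 and Vegfa), where 3.3% were. Without the libraries that stand apart 9 of 10 were called, 3 higher (Ndrg1, Vegfa and Slc2a1) and 6 lower (the other genes but Bnip3), where 37.9% of genes were; that fit has 3 residual degrees of freedom, all from passage 20 duplicates, and its single libraries are assumed to vary like those. Ndrg1 was chosen for its rise after B[a]P, so its calls here and in recovered cells are description and lend that rise no support. The calls of the other genes of the 10 in these contrasts are description too. The median log2 change of the 10 genes was -0.09, against 0.02 over all genes tested. The 7 genes other than Ndrg1, Vegfa and Slc2a1 lay between -0.41 and 0.06.

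Recovered cells showed the same order of groups for Ndrg1. It had 92.7 and 89.3 CPM after B[a]P, against 38.1 and 19.6 CPM after DMSO, without overlap. The log2 change was 1.66 ± 0.45, and 1.28 ± 0.14 without the replicate 2 set. Slc2a1 had 157.3 and 257.5 CPM after B[a]P and 115.8 and 136.8 CPM after DMSO, again without overlap. Vegfa had 244.8 and 58.6 CPM after B[a]P and 178.2 and 15.1 CPM after DMSO: it was higher within each replicate number, but replicate 1 was so much higher than replicate 2 that the groups overlapped. None of the 10 genes was called in edgeR, where 0.0558% of genes were, and none with the block, where 1.5% were. At an unadjusted p under 0.05 there were 2 and 3 of the 10, and 526 and 1773 of all genes. DESeq2 called 1 of 10 (Ndrg1), where 0.739% of genes were called, and 4 of 10 were called without the replicate 2 set (Ndrg1, Vegfa and Slc2a1 higher, Pdk1 lower), where 10.4% were. The macrophage markers summed to 25.9 and 55.8 CPM after B[a]P and 20 and 43.2 CPM after DMSO, and Cd68 was called higher with the block, at 1.32 ± 0.25 (adjusted p = 0.0182; 0.241 without). The cholangiocyte markers summed to 466 and 1710 CPM after B[a]P and 525 and 1670 CPM after DMSO, and none was called.

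Across the 3 groups of Cr(VI)-grown and recovered cells, both B[a]P libraries lay above both DMSO libraries in all 3 groups for Ndrg1 and Slc2a1, which held for 2.28% of the genes tested. None of the 10 lay below in all 3, which held for 2.01% of genes.

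In control-grown cells Ndrg1 had 35.9 and 35.2 CPM after B[a]P and 10.1 and 11.4 CPM after DMSO at passage 20, and 55.5 and 85.7 CPM after B[a]P and 21.7 and 17.8 CPM after DMSO at passage 25. Vegfa had 124.6 and 127.3 CPM after B[a]P and 33.4 and 33.9 CPM after DMSO at passage 20, and 80.0 and 76.3 CPM after B[a]P and 46.6 and 18.9 CPM after DMSO at passage 25. For both genes the groups did not overlap at either passage. Slc2a1 had 157.1 and 154.7 CPM after B[a]P and 92.5 and 86.9 CPM after DMSO at passage 20, and 192.9 and 252.9 CPM after B[a]P and 141.9 and 139.0 CPM after DMSO at passage 25, also without overlap. The fitted log2 changes were 1.78 ± 0.32 for Ndrg1, 1.58 ± 0.62 for Vegfa, 0.73 ± 0.22 for Slc2a1, -0.62 ± 0.37 for Hk2 and -0.58 ± 0.23 for Pdk1.

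Taken by pairs of libraries with the same replicate number, the B[a]P minus DMSO difference of log2 CPM was positive in 10 of 10 pairs for Ndrg1 (0.81 to 2.56), Vegfa (0.46 to 2.21) and Slc2a1 (0.10 to 0.92). Pdk1 was on the other side, with 1 of 10 pairs positive and a range of -0.80 to 0.01. Replicate numbers paired the libraries at passage 25, where duplicates differed alike in all groups, and not at passage 20.

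**Figure D3:**
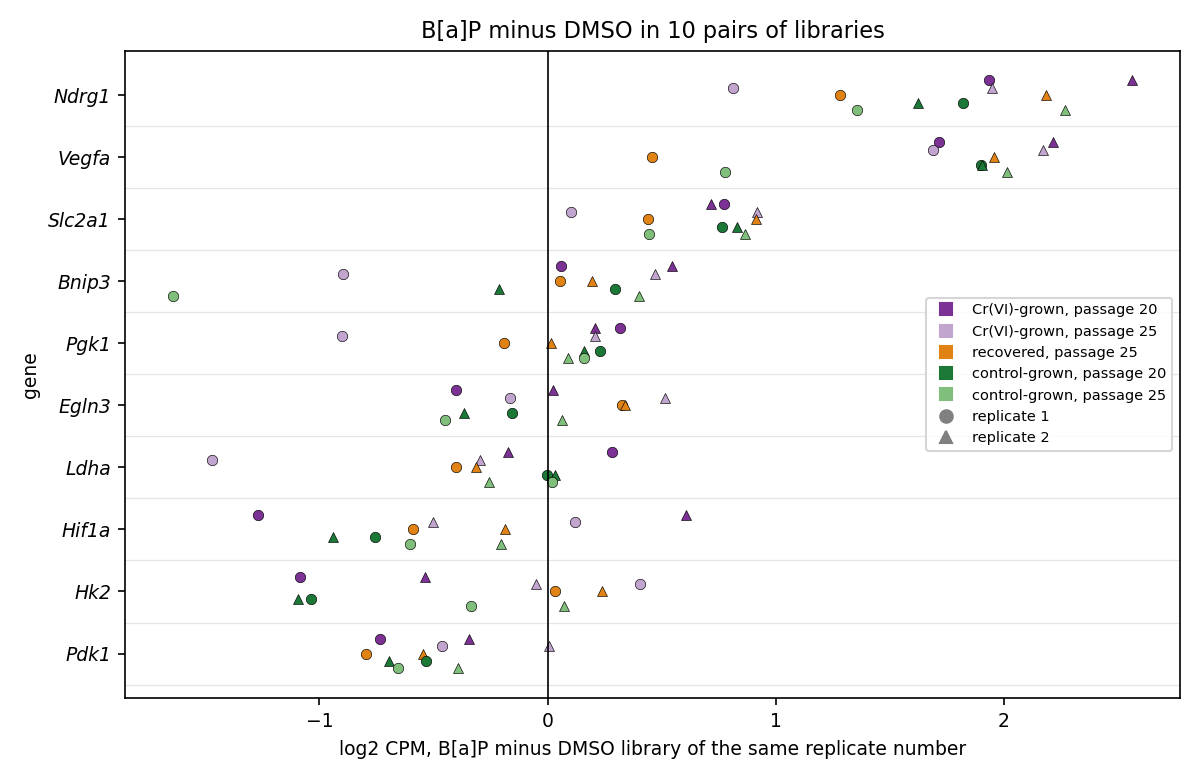
B[a]P minus DMSO difference of log2 CPM for each of the 10 genes (rows) in 10 pairs of libraries with the same replicate number; colours are growth history and passage, circles replicate 1 and triangles replicate 2. Ndrg1, Vegfa and Slc2a1 lie right of 0 in 10 of 10 pairs, and Pdk1 in 1 of 10.

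Among the enzymes and regulators of glucose use, Hk2 and Pdk1 were not among the genes called for B[a]P in Cr(VI)-grown or in recovered cells, with or without the block. Without the libraries that stand apart both were among those called lower in Cr(VI)-grown cells, and Pdk1 in recovered cells. Hk2 in Cr(VI)-grown cells had 40.4 and 35.4 CPM after B[a]P and 85.9 and 51.4 CPM after DMSO at passage 20. At passage 25 it had 65.0 and 30.1 CPM after B[a]P and 49.1 and 31.1 CPM after DMSO, so the groups were separate at the earlier passage and overlapped at the later one. In recovered cells Hk2 had 91.5 and 40.7 CPM after B[a]P and 89.5 and 34.5 CPM after DMSO, and in control-grown cells of passage 20 it had 47.9 and 44.6 CPM after B[a]P and 98.1 and 95.5 CPM after DMSO.

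Pdk1 in Cr(VI)-grown cells had 9.27 and 8.74 CPM after B[a]P and 15.5 and 11.1 CPM after DMSO at passage 20, and 17.9 and 15.6 CPM after B[a]P and 24.7 and 15.5 CPM after DMSO at passage 25. In recovered cells Pdk1 had 11.8 and 15.7 CPM after B[a]P and 20.5 and 23.0 CPM after DMSO. The B[a]P libraries lay below the DMSO libraries at passage 20 and in recovered cells, and overlapped them in Cr(VI)-grown cells of passage 25. Egln3, the hydroxylase, had 35.4 to 90.6 CPM over all libraries with a median of 52.1, and its pair differences ran between -0.45 and 0.52, with 5 of 10 positive.

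**Figure D4:**
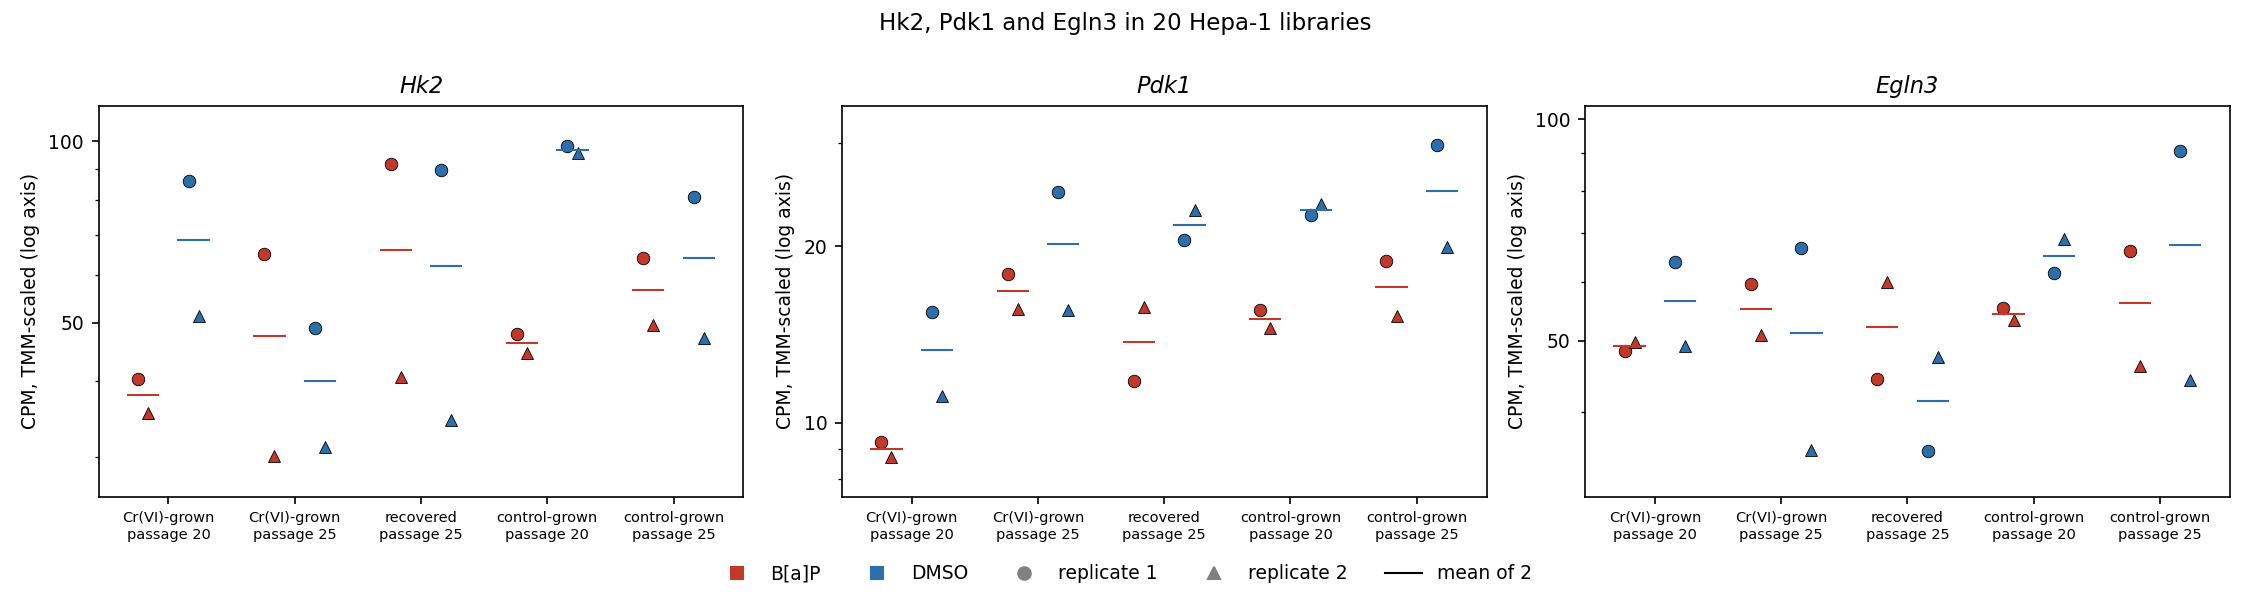
CPM (TMM-scaled, log axis) of Hk2, Pdk1 and Egln3 in each library, by growth history and passage, with B[a]P in red left of DMSO in blue; circles are replicate 1, triangles replicate 2 and bars the mean of 2 libraries. Pdk1 and Hk2 after B[a]P lay below DMSO in both passage 20 growth histories, and Egln3 overlapped in Cr(VI)-grown cells.

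Hif1a, Ldha and Pgk1 differed between the library sets, and Bnip3 between the duplicates of passage 25, which is described with no test. Hif1a had 36.8 to 65.1 CPM in the 6 replicate 2 libraries of passage 25 and 53.4 CPM in the second Cr(VI)-grown DMSO library of passage 20, against 81.4 to 416 CPM in the other 13 libraries. Replicate 2 was below replicate 1 in 6 of 6 groups of passage 25 for Hif1a (log2 difference -3.08 to -1.93), Bnip3 (-3.17 to -1.13), Hk2 (-1.37 to -0.37) and Vegfa (-3.56 to -0.07). It was above in 6 of 6 groups for Ldha (0.55 to 2.07) and Pgk1 (0.53 to 1.69). Ldha, for example, had 2590 to 3810 CPM in the replicate 2 libraries of passage 25 and 684 to 2280 CPM in the other 13, and Pgk1 had 1470 to 1730 CPM and 512 to 1090 CPM. Bnip3 had 5.97 to 9.61 CPM in the replicate 2 libraries of passage 25, which lay within the 5.48 to 66.0 CPM of the other 13. Over all genes the median of these differences was -0.08.

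**Figure D5:**
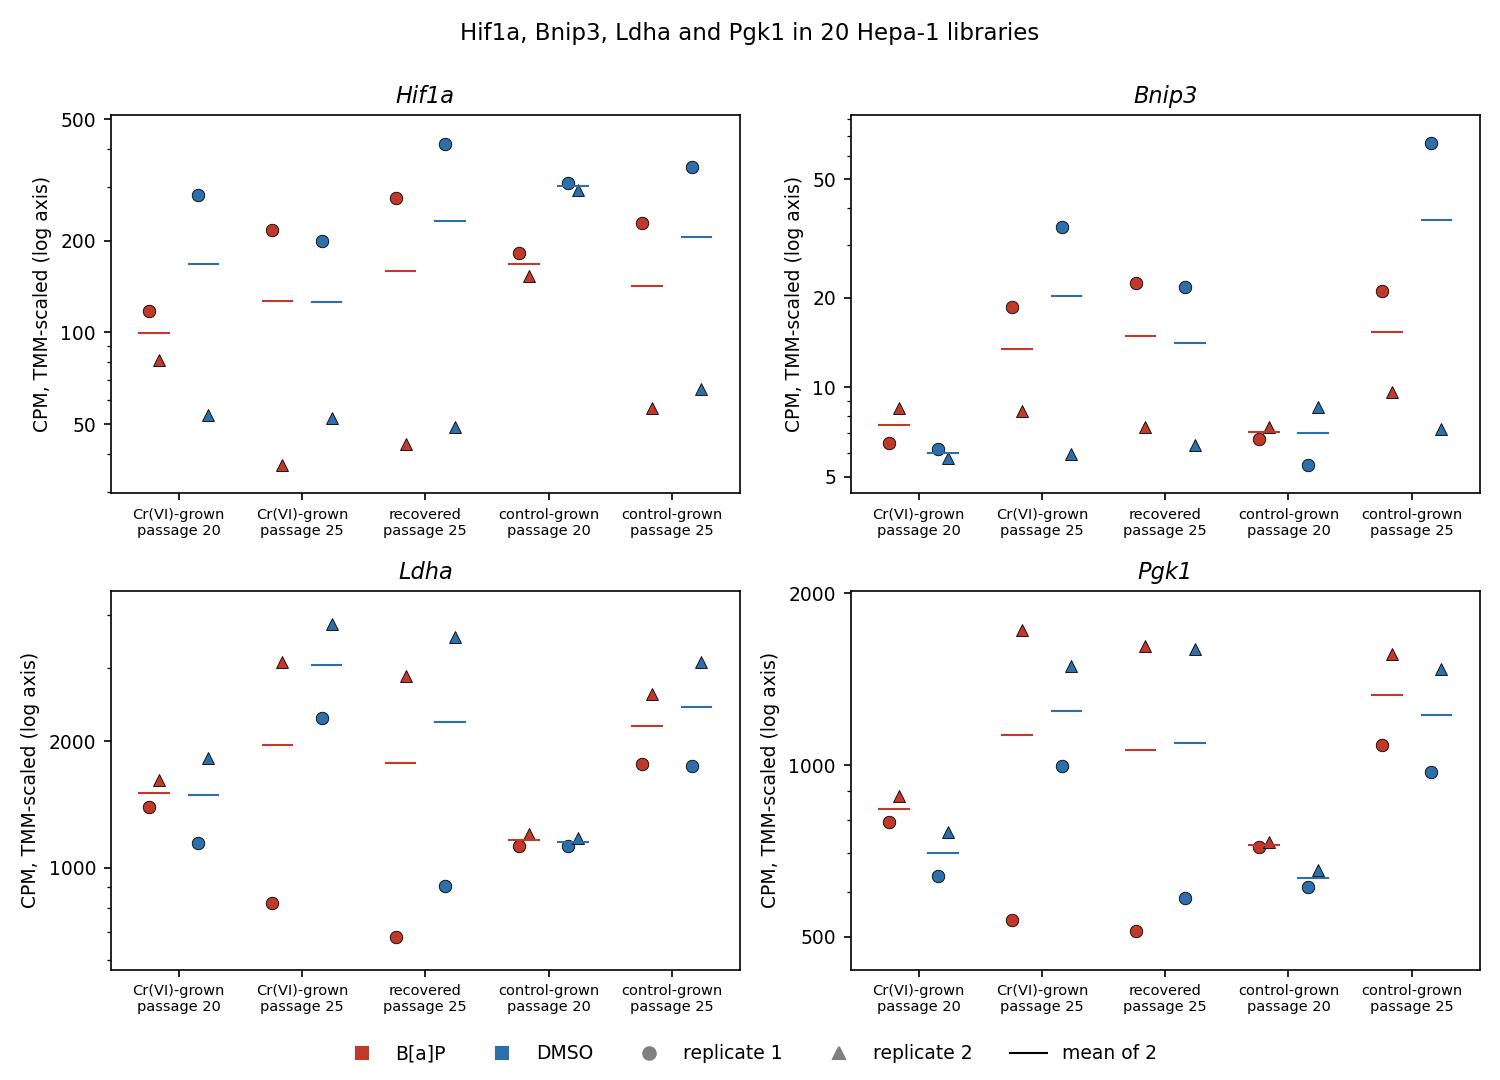
CPM (TMM-scaled, log axis) of Hif1a, Bnip3, Ldha and Pgk1 in each library, by growth history and passage, with B[a]P in red left of DMSO in blue; circles are replicate 1, triangles replicate 2 and bars the mean of 2 libraries. At passage 25 the triangles lie below the circles for Hif1a and Bnip3 and above them for Ldha and Pgk1 in 6 of 6 groups.

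The B[a]P effect on these 4 genes had no steady sign over the 6 pairs of Cr(VI)-grown and recovered cells. Hif1a was higher after B[a]P in 2 of these 6 pairs, and in 2 of all 10 (-1.27 to 0.61). It was lower in both recovered pairs (-0.590 and -0.187) and in each control-grown pair. The control-grown differences were -0.756 and -0.939 at passage 20, and -0.605 and -0.205 at passage 25. Of all 10 pairs, Ldha was higher in 3, Pgk1 in 8 and Bnip3 in 7. Hif1a had 117.5 and 81.4 CPM after B[a]P and 283.1 and 53.4 CPM after DMSO in Cr(VI)-grown cells of passage 20, and 217.1 and 36.8 CPM after B[a]P and 199.6 and 52.2 CPM after DMSO at passage 25. Its groups overlapped at both passages, and the log2 change was -0.37 ± 0.87 in edgeR. Bnip3 had 6.49 and 8.50 CPM after B[a]P and 6.23 and 5.81 CPM after DMSO at passage 20, and 18.6 and 8.30 CPM after B[a]P and 34.6 and 5.97 CPM after DMSO at passage 25. These groups did not overlap at passage 20 and overlapped at passage 25. Ldha had 1396 and 1619 CPM after B[a]P and 1146 and 1828 CPM after DMSO at passage 20, and 822 and 3101 CPM after B[a]P and 2277 and 3812 CPM after DMSO at passage 25. Pgk1 had 795 and 881 CPM after B[a]P and 639 and 762 CPM after DMSO at passage 20, and 534 and 1726 CPM after B[a]P and 997 and 1494 CPM after DMSO at passage 25. The SE of these changes, 0.44 to 0.87 in the fit without a block, leaves room for changes of that size in either direction.

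Whether the B[a]P effect differed with growth history or passage was read as a difference of differences. It is made of the B[a]P contrasts that guided the choice of genes, so no p-value of Ndrg1 is given. The counts of genes called below include Ndrg1 and are description only. For Ndrg1 the B[a]P effect in Cr(VI)-grown minus control-grown cells was 0.11 ± 0.44 on the log2 scale, and it turned to -0.12 ± 0.13 without the libraries that stand apart and to -0.34 without the second Cr(VI)-grown B[a]P library of passage 25. None of the 10 genes was called in edgeR, and none had an unadjusted p under 0.05, as 60 of all genes did without the block, where 0% of all genes were called without the block, 0% with it and 0% in DESeq2. Without the libraries that stand apart 3 of 10 were called (Vegfa higher, Ldha and Pgk1 lower), where 27.3% of genes were. At passage 25 minus passage 20 the Ndrg1 difference was -0.28 ± 0.44, and -0.79 ± 0.13 without the libraries that stand apart. Here too none of 10 was called without the block, where 0% of genes were, or with it, where 0.265% were, or in DESeq2, where 0.181% were. The counts at an unadjusted p under 0.05 were 0, 1 and 0 of the 10, and 314, 1679 and 403 of all genes. Without the libraries that stand apart 8 of 10 were called, where 44.9% were.

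Growth with Cr(VI) alone was read in the DMSO libraries. Ndrg1 had 12.8 and 9.25 CPM in Cr(VI)-grown and 10.1 and 11.4 CPM in control-grown cells at passage 20, and 19.5 and 24.5 CPM in Cr(VI)-grown and 21.7 and 17.8 CPM in control-grown cells at passage 25. The groups overlapped at both passages, with a log2 change of 0.10 ± 0.31 (edgeR adjusted p = 0.931). Pdk1 was the 1 gene of the 10 at an unadjusted p under 0.05: it had 15.5 and 11.1 CPM in Cr(VI)-grown and 22.6 and 23.6 CPM in control-grown cells at passage 20, and 24.7 and 15.5 CPM in Cr(VI)-grown and 29.7 and 20.0 CPM in control-grown cells at passage 25. Its log2 change was -0.55 ± 0.23 (adjusted p = 0.895; 0.0747 with the block). None of the 10 was called without the block, where 0% of genes were and 685 had an unadjusted p under 0.05. None was called with it, where 3.7% were, or in DESeq2, where 0.104% were. In these 2 fits 3 and 1 of the 10, and 4533 and 973 of all genes, had an unadjusted p under 0.05. Without the libraries that stand apart Hk2 and Pdk1 were called, both lower, where 21.7% of genes were.

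Recovered cells were set against control-grown cells in the DMSO libraries of passage 25, with the same control libraries as above. Ndrg1 had 38.1 and 19.6 CPM in recovered and 21.7 and 17.8 CPM in control-grown cells, overlapping, with a log2 difference of 0.55 ± 0.44 (edgeR adjusted p = 1). It was -0.01 without the first recovered library and 0.82 ± 0.14 (adjusted p = 0.0167) without the replicate 2 set. Vegfa ran widest here, with 178.2 and 15.1 CPM in recovered and 46.6 and 18.9 CPM in control-grown cells. Bnip3 had 21.7 and 6.41 CPM in recovered and 66.0 and 7.26 CPM in control-grown cells. None of the 10 was called, where 0% of genes were called without the block, 0% with it and 0% in DESeq2; 0, 1 and 0 of the 10 and 146, 632 and 183 of all genes had an unadjusted p under 0.05. Without the replicate 2 set 6 of 10 were called, 2 higher (Ndrg1 and Vegfa) and 4 lower (Egln3, Bnip3, Ldha and Pgk1), where 7.84% were; each of those groups is then 1 library.

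Passage 25 was set against passage 20, which cannot be told apart from library set. Over the 4 shared groups, 8 libraries a passage, Ndrg1 was 0.79 ± 0.22 higher on the log2 scale (1.73-fold, edgeR adjusted p = 0.0258), Slc2a1 0.66 ± 0.15 higher (adjusted p = 0.0113) and Bnip3 1.53 ± 0.49 higher (adjusted p = 0.0461). Ndrg1 after DMSO had 19.5, 24.5, 21.7 and 17.8 CPM at passage 25 and 12.8, 9.25, 10.1 and 11.4 CPM at passage 20, which did not overlap. Slc2a1 after DMSO had 132.4, 125.3, 141.9 and 139.0 CPM at passage 25 and 71.2, 73.4, 92.5 and 86.9 CPM at passage 20, again without overlap. The call of Ndrg1 was lost when any of 10 of the 16 libraries was left out, at adjusted p up to 0.0718, and that of Bnip3 for 14 of 16, up to 0.118; without the first control-grown DMSO library of passage 25, at 66.0 CPM, the Bnip3 difference was 0.94. Without the libraries that stand apart Ndrg1 was 0.41 ± 0.06 and Bnip3 2.15 ± 0.12 higher. These 3 of the 10 genes were called, where 19.4% of genes were. With the block 7 of 10 were called, 6 higher (also Ldha, Pgk1 and Pdk1) and 1 lower (Hif1a, which was higher without the libraries that stand apart), where 63.3% of genes were. DESeq2 called 4 of 10, where 29.2% of genes were, and 8 of 10 were called without the libraries that stand apart, where 58.3% were. The 10 genes had a median log2 difference of 0.55, against -0.04 over all genes.

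Other genes of the pathway were read from 4 lists in the B[a]P comparison of Cr(VI)-grown cells, without the block unless stated. Of 8 tested HIF subunits and regulators none was called, and the median log2 change was -0.14, against 0.02 over all genes. Egln1, the main oxygen-sensing hydroxylase, had 46.0 and 48.2 CPM after B[a]P and 65.0 and 56.7 CPM after DMSO at passage 20, and 39.0 and 46.6 CPM after B[a]P and 72.5 and 61.1 CPM after DMSO at passage 25. All B[a]P libraries lay below all DMSO libraries, with a log2 change of -0.51 ± 0.17 (edgeR adjusted p = 0.245), and Egln1 passed with the block (-0.50 ± 0.13, adjusted p = 0.0198). Arnt, the shared partner, changed by 0.16 ± 0.27, Vhl, which binds hydroxylated HIF1A, by 0.28 ± 0.30 and Cited2, a negative regulator of HIF, by -0.19 ± 0.25, none of which passed.

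Of 22 tested genes of glucose uptake and glycolysis none was called, with a median log2 change of -0.05. With the block 2 were higher and none lower, where 11.3% of all genes were called: Pdk4, another kinase of pyruvate dehydrogenase, at 1.13 ± 0.25 (adjusted p = 0.0113; 0.108 without the block), and Pfkfb3, which makes the activator of phosphofructokinase, at 0.75 ± 0.19 (adjusted p = 0.0214; 0.552 without). Pdk4 was at most 5.495 CPM. Slc16a3, a lactate exporter, was -0.88 ± 0.44 and Slc2a3, the glucose transporter GLUT3, 0.32 ± 0.25, and neither passed.

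Of 17 other HIF target genes 2 were called, both higher, where 0.941% of all genes were, with a median log2 change of 0.17. Adm, the peptide adrenomedullin, was one of them, at 1.202 and 1.081 CPM after B[a]P and 0.265 and 0.249 CPM after DMSO at passage 20, and at 0 in both DMSO libraries of passage 25, so its fitted fold depends on the prior count and is not given; the call was lost without any of 5 of the 8 libraries. With the block 4 were higher and none lower, where 11.3% of all genes were called, among them Ddit4, an inhibitor of mTOR signalling, at 1.24 ± 0.29 (adjusted p = 0.0148; 0.114 without the block) and P4ha1, a collagen prolyl hydroxylase, at 0.50 ± 0.14 (adjusted p = 0.0343; 0.607 without). Ddit4 had 135.6 and 152.6 CPM after B[a]P and 82.7 and 71.7 CPM after DMSO at passage 20, and 143.1 and 319.9 CPM after B[a]P and 83.5 and 74.8 CPM after DMSO at passage 25, without overlap.

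The relatives of Ndrg1 did not pass in Cr(VI)-grown cells, without or with the block. With it 2 of the 3 tested had an unadjusted p under 0.05, as 3876 of all genes did. In control-grown cells 1 of the 3 was called higher with the block, as 1086 of 14343 genes were. Of 3 tested, Ndrg2 had 35.9 and 40.2 CPM after B[a]P and 25.2 and 33.1 CPM after DMSO at passage 20, with a log2 change over both passages of 0.31 ± 0.29 (edgeR adjusted p = 0.999). Ndrg3 was -0.16 ± 0.41, and Ndrg4, at most 0.482 CPM, was 1.23 ± 0.73. By pairs of libraries with the same replicate number, Ndrg2 was higher after B[a]P in 10 of 10 (0.14 to 0.68). Ndrg3 was higher in 2 of 10 (-0.64 to 0.35) and Ndrg4 in 8 of 10 (-0.91 to 1.58). The difference between Ndrg1 and its relatives was not tested.

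In recovered cells the 4 lists gave no call in edgeR without the block, where 0.0558% of all genes were called. Of the 17 other HIF targets 1 was called higher with the block, where 1.5% of all genes were, and 1 in DESeq2, where 0.739% were. At passage 25 against passage 20, 8 of the 22 glycolysis genes were higher and 1 lower, and 4 of 17 other HIF targets lower and none higher, where 19.4% of all genes were called. With the block these counts were 16 higher and 2 lower, and 5 higher and 6 lower, where 63.3% were.

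Genes whose pattern was most like that of Ndrg1 were found from log2 CPM centred within each passage and replicate number, as Pearson's r over 20 libraries and among 14342 other genes. The points share the B[a]P treatment, so this describes a pattern and has no test. The 5 highest were Maff, a small Maf transcription factor (r = 0.974, and 0.922 without centring), Socs3, a brake on cytokine signalling (0.969 and 0.95), Hmox1, heme oxygenase (0.956 and 0.695), Slc1a4, a neutral amino acid transporter (0.956 and 0.898), and Ptgs2os, a transcript antisense to Ptgs2 (0.955 and 0.899), whose reads cannot be told apart from those of Ptgs2 without strand. Of the 9 genes described with Ndrg1, Vegfa ranked 19th (r = 0.93, and 0.67 without centring) and Slc2a1 ranked 292nd (0.83 and 0.84). Pdk1 had r = -0.70, and -0.41 without centring. The other 6 lay between -0.36 and 0.05 with centring. Replicate numbers, which the centring uses, did not pair the libraries of passage 20.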

How the data were processed

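Total RNA of 20 Hepa-1 libraries was sequenced. The authors deposited raw counts per Entrez gene ID; per the submitters' processing notes the build was mm10 and the tools included TopHat, CASAVA 1.8, bcl2fastq and DESeq, with no roles given. The counting program, and whether it used strand, is not given in the sources used here. Of 23373 IDs, 23275 matched a RefSeq GRCm38.p6 symbol. Sequences are from RefSeq of that build.

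The quasi-likelihood test of edgeR 4.0.16 (R 4.3.3) was run on the counts: filterByExpr, TMM scaling, 1 mean per group over 20 libraries, 10 residual degrees of freedom, two-sided, and Benjamini-Hochberg adjustment over 14343 genes at 0.05. The fit was run on counts simulated with known changes and with the spread of the fit with the replicate block. The simulation held no difference between library sets, so it cannot show how the fit handles that difference. The SE is the log2 change divided by the square root of F. Log2 CPM used a prior count of 2. Duplicates are not said to be separate cultures, so p-values measure the spread between these libraries, which may be technical.

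Replicate numbers were taken from the labels. At passage 25, 15 correlations of replicate differences between groups lay between 0.81 and 0.92, so the numbers paired libraries there; at passage 20, 6 lay between 0 and 0.59. The block is the replicate number within each passage, coded around its mean, with 8 residual degrees of freedom. Alternatives were that block, RLE scaling, no count filter, DESeq2 1.42.0 and leaving out each library; the block at passage 25 alone, 13 libraries and single passages were added after seeing the data.

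The 10 genes and all lists were chosen with earlier results of these data known. Because the rise of Ndrg1 after B[a]P was part of that choice, p-values of the 10 genes are not given for any B[a]P contrast. By rule, Ndrg1 is given in each comparison, another of the 10 genes where it passed, up to 4 genes of each list by smallest p for B[a]P in Cr(VI)-grown cells, and the 5 genes most like Ndrg1; other values of the 10 are given as description. The values of 1 list gene are not reported here.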

Additional observations from a re-analysis of the deposited data

How the results depend on the processing

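Within each comparison the RLE scaling and the fit with no count filter kept the direction of Ndrg1 and the count of the 10 genes called. The number of genes called for B[a]P in Cr(VI)-grown cells (1 of 10) was 3 with the replicate block, 3 with the block at passage 25 alone, 2 in DESeq2, 9 in 13 libraries without the set that stands apart, 0 at passage 20 alone and 0 at passage 25 alone, and 0 to 1 with 1 library left out. For passage (3 of 10) it was 7 with the block, 6 with the block at passage 25 alone, 8 in 13 libraries and 1 to 3 with 1 library left out. The 13-library counts where none was called otherwise were 4 for B[a]P in recovered cells (1 in DESeq2), 2 for Cr(VI), 6 for recovered cells under DMSO, and 3 and 8 for the differences of the B[a]P effect by growth history and by passage. With 1 library left out all 5 of these counts stayed at 0.

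For Ndrg1, the B[a]P effect in Cr(VI)-grown cells was 2.24 at passage 20 alone and 1.55 at passage 25 alone, and 1.44 to 2.17 with 1 library left out. In recovered cells it was 1.66 in DESeq2 and 1.28 in 13 libraries (1.25 to 2.21 with 1 left out). In control-grown cells the ranges with 1 left out were 1.61 to 1.92. Recovered cells under DMSO passed at 0.82 in 13 libraries, and the passage difference of the B[a]P effect was -0.79 there. With 1 library left out the Ndrg1 change with Cr(VI) was -0.04 to 0.20, in recovered cells -0.01 to 0.95, with passage 0.57 to 0.93, and the differences of the B[a]P effect -0.34 to 0.39 and -0.74 to -0.01. Signs turned for the growth-history difference of Ndrg1 (-0.12 in 13 libraries), Hif1a with passage (0.32 in 13 libraries; -0.66 to 0.21 with 1 left out), and after B[a]P in Cr(VI)-grown cells for Vhl (-0.02 in 13 libraries; -0.09 to 0.52), Cited2 (0.16 at passage 25 alone), Arnt (-0.09 at passage 20 alone; -0.06 to 0.48) and Ndrg3 (-0.57 to 0.10 with 1 left out). The cause was not tested. Apart from the counts above and the genes named as passing with the block, pairing by the block changed no call of Ndrg1 by growth history under DMSO or by passage. With 2 libraries a group the fit without a block had a common dispersion of 0.228, against 0.045 with it, which limits what can be called.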
